A study of Homo sapiens with 22 samples.

Results

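The loci described here are 5 genes of the p53 pathway, MDM2, MDM4, CDKN1A, GADD45A and BBC3, out of the 19974 protein-coding genes on chromosomes 1 to 22 and X. Each was taken as its RefSeq span on hg38 with 20 kb added on each side, and every deposited MTBP peak, H3K4me2 peak and initiation zone that touched this window was kept. The windows held 34 such entries in all, 12 of 29848 MTBP peaks, 19 of 62388 H3K4me2 peaks and 3 of 2473 zones. The genes were chosen by name, with earlier results of these data known, and the entries by position alone.

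All 22 libraries came from DLD-1, an established human colorectal adenocarcinoma line. In CUT&RUN an antibody-bound nuclease releases the DNA next to the antibody's target for sequencing, and it was applied with an antibody to FLAG in MTBP-mAID/MTBP-deltaC-FLAG cells (C-terminally truncated MTBP, 3 libraries), MTBP-mAID/MTBP-WT-FLAG cells (full-length MTBP, 3 libraries) and MTBP-mAID/MTBP-mAID cells, which lack the FLAG tag (3 libraries). In the WT line it was also done with an antibody to H3K4me2 and with IgG (2 libraries each). EdU-seq, which sequences newly made DNA, was done in cells released from G1 into S phase in the deltaC and WT lines and in G1-arrested WT cells (3 libraries each), with 10 µM EdU for 3 hr. Hydroxyurea and aphidicolin, which hold replication near where it began, were present during labelling of released cells. All the lines carry the mAID degron, which marks a protein for destruction when auxin is added, on every MTBP copy without FLAG. The labels do not say whether auxin was added or how many clones stand behind a line.

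p53 is a transcription factor that acts after DNA damage and other stress. It switches on genes that stop the cell cycle (CDKN1A, GADD45A) or start cell death (BBC3), and it also switches on MDM2, a ubiquitin ligase that marks p53 for destruction, so that the pathway limits itself. MDM4 is a relative of MDM2 that binds p53 and holds it inactive. MTBP was first named as an MDM2 binding protein and is now known mainly as the partner of Treslin in starting DNA replication. Neither p53 binding nor expression was measured in these libraries.

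Promoter sequences are shown for MDM2, MDM4 and CDKN1A, since the results below set their MTBP peaks against these stretches. They come from RefSeq's table for GRCh38.p14, run 5′ to 3′ on the strand of the gene from 250 bases before the start site, and are 300 bases long. The table held 4 of the 5 genes, all but GADD45A. MDM2 has an upstream start and a second start within the gene, the one known to respond to p53. In the second, capitals mark matches to the p53 response element consensus (2 half-sites of 10 bases each, its own reverse complement) with at most 3 mismatches.
MDM2, upstream start, chr12:68807922-68808221, + strand: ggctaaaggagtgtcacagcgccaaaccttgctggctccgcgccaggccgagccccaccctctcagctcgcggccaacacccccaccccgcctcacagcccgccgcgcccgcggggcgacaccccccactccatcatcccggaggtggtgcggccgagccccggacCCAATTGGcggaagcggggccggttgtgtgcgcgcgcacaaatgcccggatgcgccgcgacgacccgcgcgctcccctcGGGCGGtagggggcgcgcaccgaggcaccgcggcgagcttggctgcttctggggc
MDM2, second start, chr12:68808767-68809066, + strand: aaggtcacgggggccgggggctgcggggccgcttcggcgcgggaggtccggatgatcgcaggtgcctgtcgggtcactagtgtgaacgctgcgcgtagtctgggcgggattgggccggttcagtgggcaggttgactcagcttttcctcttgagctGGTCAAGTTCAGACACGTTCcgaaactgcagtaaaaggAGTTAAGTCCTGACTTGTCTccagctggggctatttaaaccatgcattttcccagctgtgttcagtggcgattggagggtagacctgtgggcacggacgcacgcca
MDM4, chr1:204516156-204516455, + strand: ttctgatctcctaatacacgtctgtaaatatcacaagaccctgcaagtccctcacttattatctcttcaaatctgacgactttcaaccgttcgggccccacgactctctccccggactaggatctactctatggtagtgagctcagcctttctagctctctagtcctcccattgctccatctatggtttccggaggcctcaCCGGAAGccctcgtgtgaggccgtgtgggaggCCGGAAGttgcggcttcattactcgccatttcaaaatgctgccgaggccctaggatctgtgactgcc
CDKN1A, chr6:36678464-36678763, + strand: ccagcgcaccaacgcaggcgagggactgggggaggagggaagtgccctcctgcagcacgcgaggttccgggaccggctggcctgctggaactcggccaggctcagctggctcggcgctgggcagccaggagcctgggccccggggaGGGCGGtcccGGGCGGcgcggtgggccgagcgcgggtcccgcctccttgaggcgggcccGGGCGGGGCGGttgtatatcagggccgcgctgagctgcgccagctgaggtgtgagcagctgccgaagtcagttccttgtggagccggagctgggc
In the other promoters, no stretch of the 300 bases came closer than 5 mismatches to the p53 consensus. Elements farther from a start were not searched for. In these promoters capitals mark the GC box GGGCGG, the CCAAT box, the TATA box TATAAA and the ETS factor core CCGGAAG, searched on both strands. The second MDM2 promoter held p53 element matches at 94 to 75 bases before its start (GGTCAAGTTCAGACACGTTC, 2 mismatches) and at 56 to 37 bases before it (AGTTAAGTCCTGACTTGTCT, 3 mismatches). Of 22132 promoter windows of protein-coding genes, 0.551% had a match with at most 2 mismatches and 4.74% one with at most 3. The upstream MDM2 promoter had CCAAT on both strands, overlapping, at 84 to 77 bases before the start, and GGGCGG overlapping the start. CCAAT was present in 34.6% of all promoter windows. In the MDM4 promoter CCGGAAG occurred at 49 to 43 and at 17 to 11 bases before the start, against 12.8% of promoter windows with at least 1 copy. CDKN1A had 4 copies of GGGCGG between 104 and 35 bases before the start, of which a pair shared a base. That motif was in 56.3% of promoter windows. TATAAA was in 9.46% of promoter windows and in none of the 4 sequences shown.

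MTBP was present at all 5 genes, against 71.1% of all protein-coding windows. H3K4me2, a histone mark of active promoters and enhancers, was also present at all 5, against 86.2%. An initiation zone touched 3 of the 5 windows (MDM4, CDKN1A and BBC3), against 32.1%, and the same 3 genes had all of the features, against 29.2%. Counts of 5 and of 3 genes are too few to set these loci apart from other genes. MDM4 and GADD45A had 4 MTBP peaks each, BBC3 had 2, and MDM2 and CDKN1A had 1 each. The median protein-coding window had 1 MTBP peak, and 15.1% of windows had at least 4. Per 10 kb of window, the density was 0.121 peaks at MDM2, 0.197 at CDKN1A, 0.384 at BBC3, 0.490 at MDM4 and 0.927 at GADD45A, with a median of 0.169 over all windows. Only 2.23% of protein-coding windows were at least as dense as that of GADD45A. That window was 43.1 kb long, against a median of 64.2 kb, and the same count gives a higher density in a shorter window. The GADD45A peaks scored 131 to 180, below the list's median of 190.

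**Figure D1:**
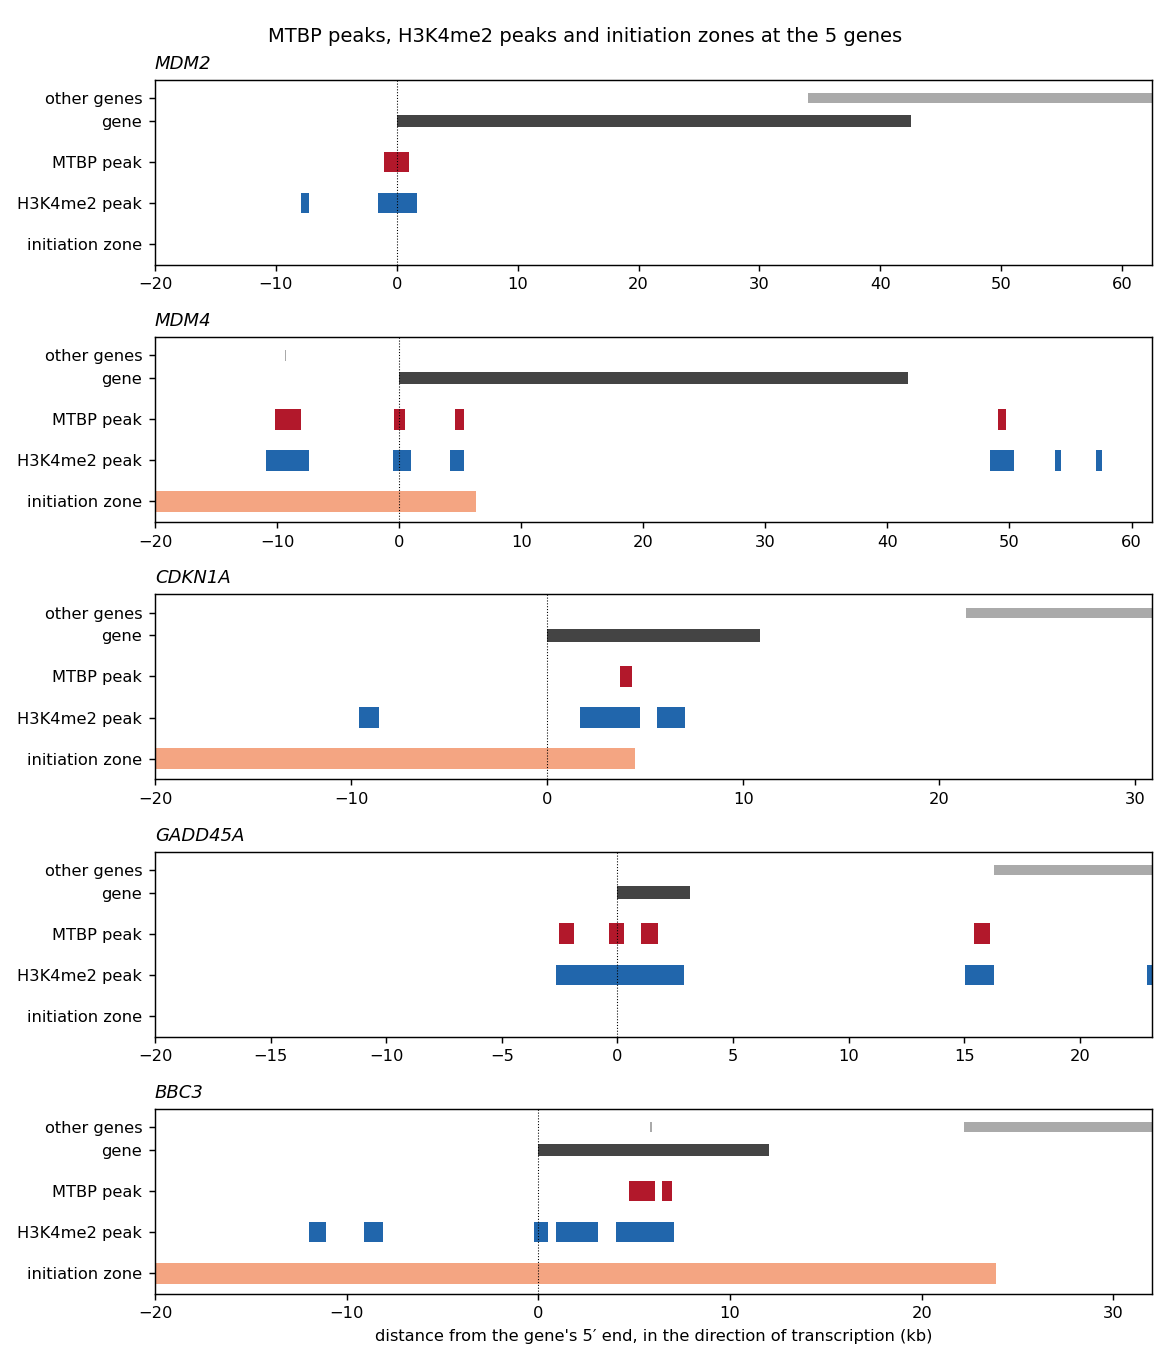
Maps of the 5 windows, drawn to scale with a separate axis for each gene, in kb from the gene's 5′ end in the direction of transcription. Bars are MTBP peaks (red), H3K4me2 peaks (blue), initiation zones (orange), the gene (dark grey) and other protein-coding, tRNA and miRNA genes (light grey); every MTBP peak lies over H3K4me2, and MDM2 and GADD45A have no zone.

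The deposited MTBP list gives, for each line, 1 pooled signal per peak with an unstated scaling and no library values. These sums have no replicate error, and no difference between the lines could be tested. The signals were found to be sums over the peak. Divided by the peak's length with both ends counted, both came out as whole millionths, within 0.01 of a millionth, in 90.9% of the list. Levels at different peaks are therefore compared per kb of peak. Across the whole list deltaC signal was below WT signal at 95.5% of peaks, with a median deltaC/WT of 0.524 after adding 1 to both, and 44.9% of peaks had a deltaC/WT below 0.5. In the list, 97.1% of peaks were named for the WT line. If they were picked in that line, the choice itself favours WT signal. How much of this general difference came from that choice, the scaling of the lines, the amount of each protein or its binding cannot be told apart here. All 12 peaks at the 5 genes had less deltaC than WT signal. Their median deltaC/WT was 0.447, and 7 of 12 lay below 0.5. Relative to the list's median, 4 peaks were above and 8 below. On the log2 scale the median was -1.16 at these peaks and -0.93 over the list, a small gap beside the spread of the list, whose middle 50% ran from 0.401 to 0.663 in deltaC/WT.

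MDM2 (chr12:68808172-68850686) had a single MTBP peak, at its start (chr12:68807129-68809210, 2082 bp, promoter class). The peak covered both promoter sequences shown above, the p53 element matches included. Its summit lay at -147 bases from the upstream start and at -992 bases from the second. The pooled signal was 474 in deltaC and 776 in WT, or 228 and 373 per kb, a deltaC/WT of 0.611. The peak score of 222 was above that of 57.1% of the list. MDM2 thus had one of the 4 peaks of the 5 genes at which deltaC kept more than the list's median share of the WT signal. The MTBP peak lay wholly within a 3232-bp H3K4me2 peak of 26.4-fold enrichment (score 1852). Another H3K4me2 peak, 700 bp wide and 10.0-fold enriched (score 312), lay upstream of the gene and had no MTBP. The rest of the window, including the body of the gene and its overlap with CPM, a carboxypeptidase gene, had neither mark. The next MTBP peaks lay 41.3 kb below and 182 kb above the window.

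MDM4 (chr1:204516406-204558120) had 4 MTBP peaks, with scores from 95 to 360 and deltaC/WT from 0.077 to 0.552. At the start site the peak (chr1:204516009-204516876, promoter class) had the highest score of the 12, 360. Its signal was 258 in deltaC and 469 in WT, or 298 and 540 per kb, a deltaC/WT of 0.552. It lay over the CCGGAAG copies shown above, and H3K4me2 there was 31.6-fold enriched, the highest of the 19 H3K4me2 peaks. A wider peak upstream (chr1:204506210-204508328, 2119 bp, score 336, enhancer class) covered the lysine tRNA genes TRK-TTT3-1 and TRK-TTT3-2. There the signal was 317 in deltaC and 772 in WT, or 150 and 364 per kb, and deltaC/WT was 0.412.

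The other MDM4 peaks were annotated to repeats. The one in an MLT1H2 element, an ancient retrovirus-like repeat, lay inside the gene (chr1:204521023-204521699, score 95). Its signal was 10.2 in deltaC and 144 in WT, or 15.0 and 213 per kb. This deltaC/WT of 0.077 was the lowest at the 5 genes, and 1.3% of the list was lower. The peak was also weak in WT, with only 4.5% of the list lower per kb. Without it, deltaC/WT at MDM4 ran from 0.412 to 0.552, against 0.295 to 0.692 at GADD45A. The last peak lay in a MIR1_Amn element in LRRN2-AS1, a long non-coding RNA gene beyond the 3′ end of MDM4 (chr1:204565491-204566154, score 190). Its signal was 161 in deltaC and 315 in WT, or 243 and 474 per kb, with a deltaC/WT of 0.514. H3K4me2 covered all of the MTBP peaks, at 9.38-fold for the MLT1H2 peak, 20.1-fold for the tRNA peak and 21.1-fold for the peak in LRRN2-AS1. The remaining H3K4me2 peaks, also in LRRN2-AS1, were weak, at 3.71-fold and 6.31-fold, and had no MTBP.

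CDKN1A (chr6:36676463-36687332), which encodes the cyclin-dependent kinase inhibitor p21, had 1 MTBP peak, and it did not lie over the promoter. The peak (chr6:36680164-36680793, 630 bp, promoter class, annotated to a CpG island) had its summit 1568 bases past the start site of the sequence shown. Its score of 95 was shared with the MLT1H2 peak of MDM4 as the lowest of the 12, and 6.0% of the list was lower. The signal was 71.5 in deltaC and 210 in WT, or 114 and 333 per kb, and deltaC/WT was 0.344. Per kb the deltaC level was the lowest of the 12 after the MLT1H2 peak, while the WT level was above those of the MLT1H2 peak and the wider BBC3 peak. The H3K4me2 peak around it was 3077 bp wide and 26.3-fold enriched (score 2095). It also covered the promoter sequence and part of DINOL, a non-coding RNA gene at the CDKN1A promoter. Without MTBP were an H3K4me2 peak upstream of the gene (14.9-fold, score 628) and one inside the gene (16.8-fold, score 1036). Neither PANDAR, a non-coding RNA gene upstream, nor RAB44, a small GTPase gene downstream, had an MTBP peak over its part of the window.

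GADD45A (chr1:67685201-67688334), a growth arrest and DNA damage response gene, is the shortest of the 5 at 3134 bp. Its strand was taken from the sign of the authors' distances. Around its start, 3 MTBP peaks lay under one H3K4me2 peak of 5561 bp (26.1-fold, score 2544), which was wider than 98.3% of the H3K4me2 list. The upstream peak (chr1:67682666-67683303, score 131) had a signal of 151 in deltaC and 219 in WT, a deltaC/WT of 0.692. At the start (chr1:67684823-67685492, score 170) the signal was 138 in deltaC and 409 in WT, a deltaC/WT of 0.340. In the intron (chr1:67686237-67686964, score 170) it was 169 in deltaC and 316 in WT, a deltaC/WT of 0.536. Per kb, the start peak had 206 in deltaC and 610 in WT, the highest WT level of the 12. The upstream peak had 237 in deltaC and 343 in WT, and the intron peak 232 in deltaC and 434 in WT. So the deltaC levels of these neighbouring peaks were close to each other, and their WT levels were not. The remaining peak, classed as an enhancer, lay just past the 3′ end of GNG12, a G protein subunit gene (chr1:67700629-67701312, score 180). Its signal was 84.5 in deltaC and 289 in WT, or 124 and 423 per kb, and deltaC/WT was 0.295. The H3K4me2 there was 17.1-fold enriched. The last H3K4me2 peak of the window (9.29-fold) reached past its edge and carried an MTBP peak that began 195 bases beyond it, which was not counted among the 12.

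BBC3 (chr19:47220824-47232860), whose product PUMA is a BH3-only protein that starts apoptosis, had 2 MTBP peaks, both inside the gene. Neither lay over the promoter in the RefSeq table, which had H3K4me2. The wider peak (chr19:47226773-47228156, 1384 bp, score 112) covered the miRNA genes MIR3190 and MIR3191, which lie on opposite strands of the same stretch. Its signal was 177 in deltaC and 365 in WT, or 128 and 264 per kb, a deltaC/WT of 0.485. The other (chr19:47225914-47226413, 500 bp, score 160) had 87.6 in deltaC and 257 in WT, or 175 and 513 per kb, a deltaC/WT of 0.344. The narrower peak was thus the stronger per kb in both lines. The authors annotated these peaks to the start sites of MIR3190 and MIR3191, and both are of the promoter class. The MIR3190 hairpin is shown as an example of the sequence under the wider peak, where the MIR3191 hairpin lies on the other strand.
MIR3190 hairpin, chr19:47226942-47227021, + strand: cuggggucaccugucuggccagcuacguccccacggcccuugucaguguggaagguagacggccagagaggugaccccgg
An H3K4me2 peak of 3032 bp (20.3-fold, score 1676) held both MTBP peaks. The other 4 H3K4me2 peaks of the window, at 9.12 to 13.0-fold, had no MTBP. They lay at the 5′ end of the gene, just inside it, and in LOC124904731, a non-coding RNA gene upstream.

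**Figure D2:**
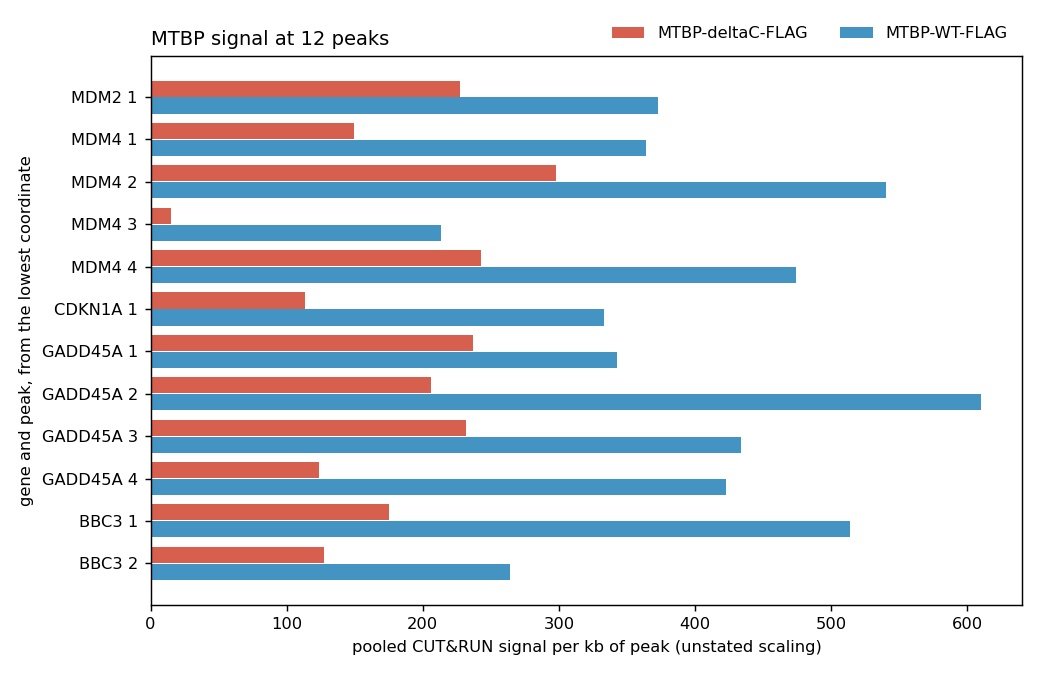
Pooled CUT&RUN signal per kb of peak (x axis, scaling unstated) in MTBP-deltaC-FLAG (upper bar) and MTBP-WT-FLAG (lower bar) at the 12 MTBP peaks, numbered within each gene from the lowest coordinate. The values have no replicates and so no error bars; deltaC is below WT at every peak, and the third MDM4 peak has 15.0 in deltaC against 213 in WT.

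**Figure D3:**
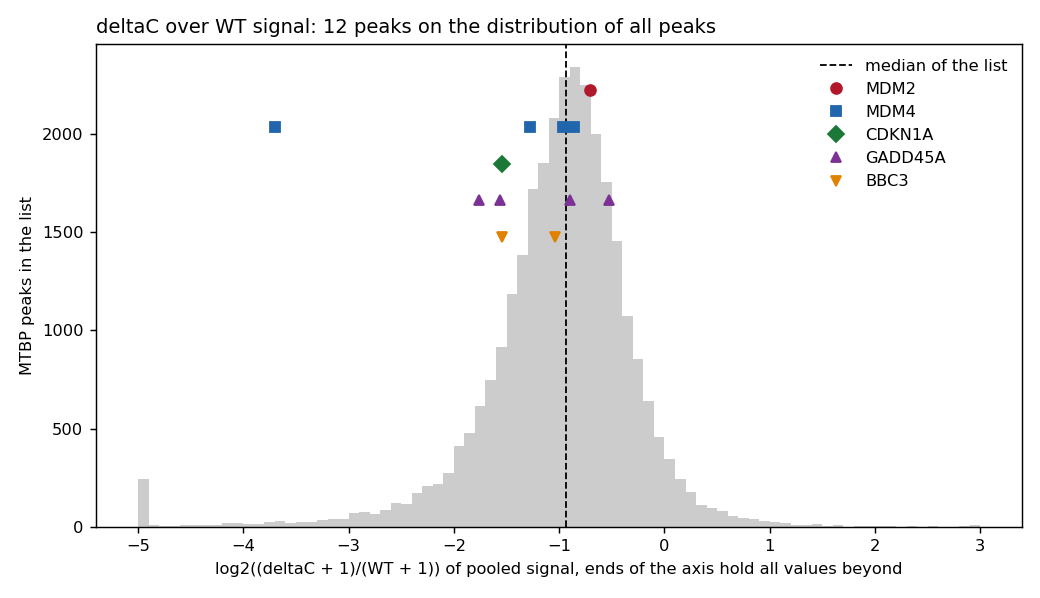
Histogram of log2((deltaC + 1)/(WT + 1)) over all 29848 MTBP peaks (grey, y axis in peaks, dashed line at the median of -0.93), with the 12 peaks of the 5 genes as coloured symbols at arbitrary heights. Most symbols lie in the body of the distribution, from -1.76 to -0.53, and 1 MDM4 peak lies apart at -3.70.

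Peaks over start sites did not share one deltaC/WT value. The start-site peaks of MDM2, MDM4 and GADD45A had deltaC/WT of 0.611, 0.552 and 0.340. Of the 12, 7 were of the authors' promoter class, against 34.7% of the list, 2 of the enhancer class and 3 of neither. The 12 come from windows around genes and the list from any distance to a gene, so these shares have unlike bases. Besides the start-site peaks, the 7 include the CDKN1A and BBC3 peaks and the GADD45A intron peak, which lay off the starts of these genes. All 12 were named for the WT line, as were 97.1% of the list. Peak scores ran from 95 to 360, and 8 of 12 were below the list's median of 190. Per kb, deltaC levels ran from 15.0 to 298 with a median of 191, against 213 over the list, and WT levels from 213 to 610 with a median of 398, against 395. The median width was 680 bp against 938 bp over the list, and 9 of the 12 were narrower than the list's median, while the MDM2 peak, the tRNA peak of MDM4 and the wider BBC3 peak were broader.

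H3K4me2 covered the whole length of all 12 MTBP peaks. In the list, 98.9% of MTBP peaks overlapped H3K4me2, so this holds nearly everywhere. Of the 19 H3K4me2 peaks, 10 overlapped an MTBP peak, against 43.6% of the H3K4me2 list, which counts peaks at any distance from a gene. The 9.29-fold peak at GADD45A is among the 10 only through the MTBP peak beyond the window, which is not one of the 12. Those 10 had a fold enrichment of 9.29 to 31.6 (median 20.7) and a width of 1182 to 5561 bp. The 9 without MTBP had 3.71 to 16.8 (median 10.0) and 451 to 2224 bp. The ranges overlapped between 9.29 and 16.8-fold. In the whole list the medians were 23.0 with MTBP and 9.35 without. The strongest H3K4me2 peak of each gene was one with MTBP.

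**Figure D4:**
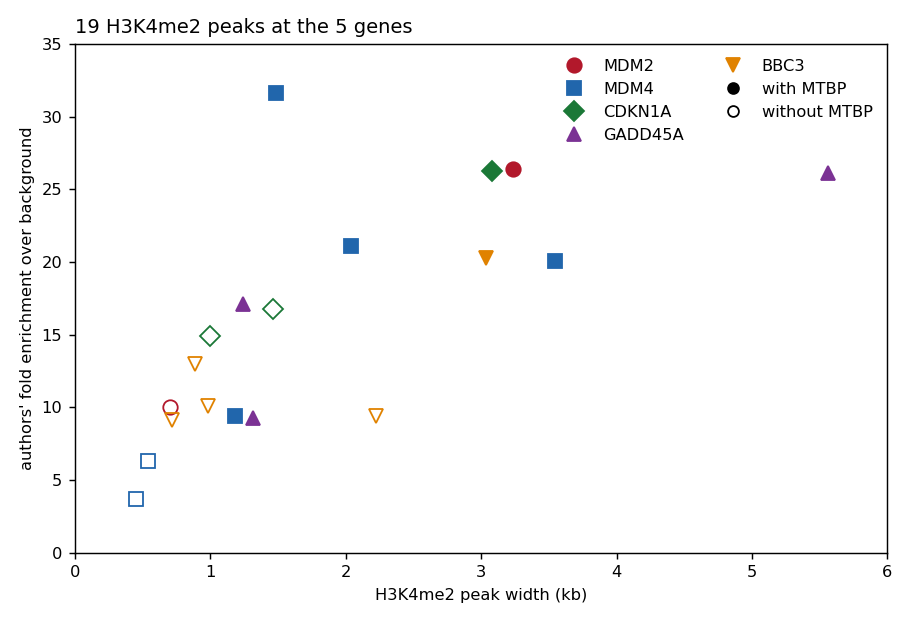
Width in kb (x axis) and the authors' fold enrichment (y axis) of the 19 H3K4me2 peaks, with a symbol for each gene, filled where an MTBP peak overlaps and open where none does. The 7 peaks of at least 20-fold are all filled, and the open symbols end at 16.8-fold.

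The initiation zones differed in strength and in how much of the gene they held. BBC3 lay wholly in a 72.6-kb zone (chr19:47208973-47281590) with a score of 1860, higher than 86.4% of zones. The zone also reached SAE1, CCDC9 and INAFM1, and had 4 MTBP and 9 H3K4me2 peaks, of which 2 and 5 were in the window. At MDM4 a 52.9-kb zone (chr1:204469766-204522697, score 1649, higher than 83.0%) held the start site and the first 6.29 kb of the gene, and extended upstream to PIK3C2B, a lipid kinase gene. It had 5 MTBP peaks, of which 3 were in the window: the tRNA peak, the start-site peak and the MLT1H2 peak, which ended 998 bases short of the zone's edge. CDKN1A had a weaker zone of 34.8 kb (chr6:36646207-36680968, score 206), and 19.1% of zones scored lower. Its start site lay inside, and 41.5% of the gene. The 1 MTBP peak of CDKN1A was also the 1 MTBP peak of that zone, and it ended 175 bases from the zone's edge. The median zone had a score of 628, a width of 48.3 kb and 2 MTBP peaks. The zone scores are averages of the authors' peak scores with no values per line, so the deltaC and WT lines could not be compared there.

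A zone held 6 of the 12 MTBP peaks, against 23.0% of the list, and 10 of the 19 H3K4me2 peaks, against 17.6%. Both list shares count peaks at any distance from a gene, unlike the windows. Of the 4 members in the promoter table, 3 had the promoter sequence in a zone, against 19.9% of protein-coding genes. The 6 came from 3 loci and are not independent of each other. MDM2 and GADD45A were far from any zone of the list. EdU labelled cells just released into S phase with replication held, so sites that start later may be missing from it. The nearest zone to MDM2 lay 3.67 Mb away and that to GADD45A 3.94 Mb away, against a median of 160 kb over protein-coding genes. Only 8.93% of protein-coding genes were farther from a zone than MDM2 and 8.19% farther than GADD45A. Within 500 kb of the gene there were 0 zones at MDM2 and at GADD45A, 3 at MDM4, and 8 each at CDKN1A and BBC3. MTBP peaks within the same 500 kb numbered 10 at MDM2, 23 at GADD45A, 25 at CDKN1A, 26 at MDM4 and 45 at BBC3. GADD45A thus had about as many MTBP peaks around it as CDKN1A and MDM4, and no listed zone. A further zone beside CDKN1A (chr6:36713702-36724233, score 126) began 6.37 kb beyond the window and had 0 MTBP peaks.

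The wider p53 pathway was described with a list of 44 genes, the 5 members included. The list also counts 6 paralogues (TP63, TP73, GADD45B, GADD45G, CDKN1B and CDKN1C), of which 4 had MTBP and 2 a zone. MTBP was in the window of 40 of the 44 (90.9%, against 71.1% of all protein-coding windows), H3K4me2 in all 44 (86.2%), and a zone in 22 (50%, against 32.1%). Without the 5 members, 35 of 39 had MTBP and 19 had a zone. The list holds well-studied genes chosen with earlier results of these data known, so these shares got no test. Among 9 regulators of p53, 8 had MTBP and 5 a zone. PPM1D, a phosphatase that acts against p53, and USP7, a deubiquitinase of MDM2 and p53, had all of the features, as MDM4 did. TP53BP1, a damage response gene, had H3K4me2 and a zone without MTBP.

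For the groups below, the shares over all protein-coding windows are 71.1% with MTBP and 32.1% with a zone. Of 10 arrest and repair genes, 10 had MTBP and 5 a zone. Those with all of the features besides CDKN1A were SFN, DDB2, POLH and PLK3. PLK3, a stress kinase gene, had the highest peak score of the list, 902, with a summed signal of 853 in deltaC and 2374 in WT. Of 13 cell death genes, 12 had MTBP and 7 a zone. BAX, TNFRSF10B, BID, TP53I3, PHLDA3 and PERP were like BBC3 in having all of them, and TP53INP1 had H3K4me2 alone. Of 6 stress and metabolism genes, 6 had MTBP and 3 (SESN2, GDF15, FDXR) a zone. None of the 44 genes lacked all 3 features, against 13.3% of protein-coding windows, which follows from H3K4me2 being at all 44.

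**Figure D5:**
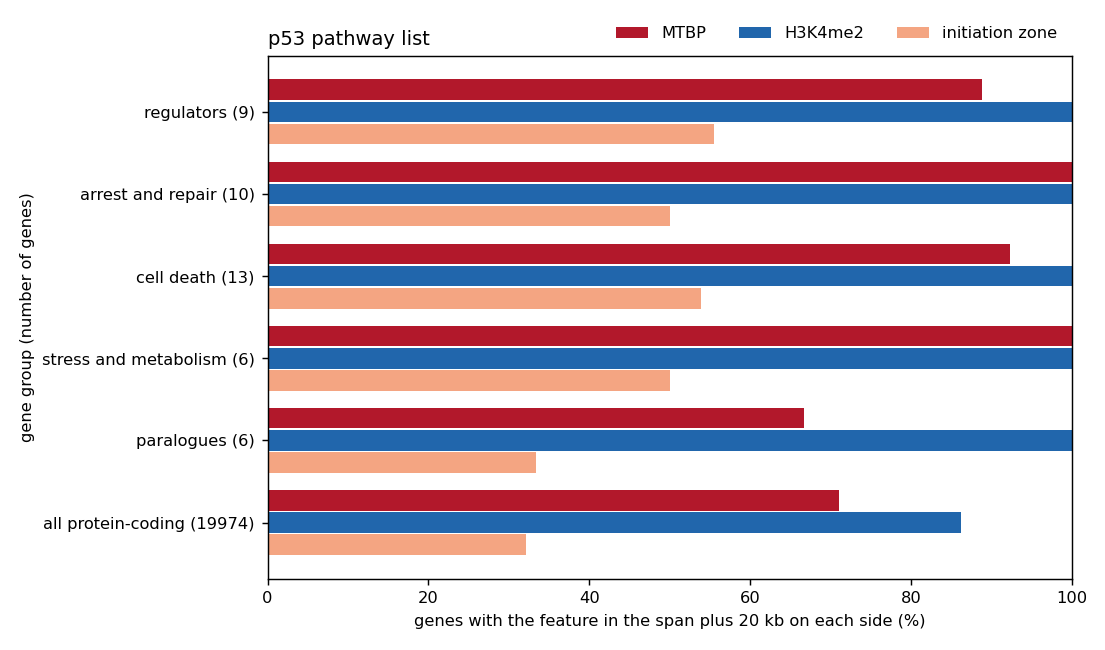
Share of genes (x axis, %) with an MTBP peak, an H3K4me2 peak or an initiation zone in the span plus 20 kb on each side, for 5 groups of the p53 pathway list and, in the lowest row, all 19974 protein-coding genes; the number of genes is in brackets. H3K4me2 is at 100% in every group of the list, and zones range from 33.3% to 55.6%.

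The promoter itself was taken as 250 bases before to 50 after a RefSeq start. There 26 of the 37 list genes in the promoter table had MTBP (42.9% of protein-coding genes) and 36 had H3K4me2 (63.7%). As 98.9% of MTBP peaks overlapped H3K4me2, these are not separate comparisons. The share with MTBP among only the promoters that have H3K4me2 is not given. Of the 4 members in the table, MDM2 and MDM4 had MTBP over the promoter and all 4 had H3K4me2. CDKN1A and BBC3 shared the lack of MTBP over the promoter with USP7, TP53BP1, BTG2, BAX, FAS, SESN2, DRAM1, TP63 and TP73. Summed over each window, deltaC/WT was 0.344 at CDKN1A, 0.426 at BBC3, 0.440 at MDM4, 0.441 at GADD45A and 0.611 at MDM2. The 40 list genes with MTBP had a median of 0.494, from 0.316 at FDXR to 0.844 at APAF1, and 24 of them were below 0.5. Of these 40 genes, 3 had a higher value than MDM2 and 2 a lower value than CDKN1A.

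To set the cell type label beside the data, marker genes were examined in the same way. All 8 markers of colorectal epithelium (EPCAM, CDX2, VIL1, KRT8, KRT18, KRT20, CDH1 and LGR5) had MTBP and H3K4me2 in their windows. Of the 8, 6 had a zone there. KRT8 and KRT18 overlap each other, so their windows are not independent. Of 6 markers of other cell types, 5 had MTBP, 4 had H3K4me2 and 0 had a zone in the window. The hepatocyte gene ALB had none of the features, and the muscle gene MYOD1 had 1 MTBP peak without H3K4me2. The leukocyte genes PTPRC and CD3E had 4 and 3 MTBP peaks with 7 and 4 H3K4me2 peaks, the neuronal gene SYP had 2 MTBP and 5 H3K4me2 peaks, and NEUROD1 had 1 of each. Over all protein-coding windows the shares were 71.1% with MTBP, 86.2% with H3K4me2 and 32.1% with a zone, so MTBP or H3K4me2 in a window is a weak check of the cell type.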

How the data were processed

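Per the submitters' processing notes, Trim Galore, Bowtie2, MACS2 and HOMER were used on hg38; versions, order, parameters and any pooling of replicates are not stated in them. The authors deposited 3 lists: MTBP peaks with a peak score and a pooled signal for WT and for deltaC, initiation zones with an average peak score, and H3K4me2 peaks with a score, a fold enrichment, and −log10 p-values and q-values (deposited in the narrowPeak layout, and used only as the authors' values). Scales are unstated. The lists do not give library depth, which is therefore unknown, and no counting intervals were computed.

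Peaks and zones were assigned to a gene by an overlap of at least 1 bp with its RefSeq (GRCh38.p14) span plus 20 kb on each side, and the same was done for all protein-coding genes on chromosomes 1 to 22 and X. The deltaC/WT value is (deltaC + 1)/(WT + 1). The planned limma test needed library values, so no p-value is given. H3K4me2 starts were made 1-based. Scripts (Python 3.11.15, pandas 2.3.3, numpy 2.4.6, matplotlib 3.10.9) were tested on simulated intervals. All members and alternatives, and the pathway list, were chosen with earlier results of these data known. The named genes are the 5 members, their neighbours, and list genes with all or none of the features; others, such as APAF1, TP53BP1, TP53INP1 and those without promoter MTBP, were named after their values were seen. One gene of the pathway list is counted in its group but not reported here. The IgG, untagged and G1-arrested libraries were not analysed here.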

Additional observations from a re-analysis of the deposited data

How the results depend on the processing

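MTBP was at all 5 genes with 0, 5 or 50 kb added to the span and with a required overlap of 50% of the peak. H3K4me2 was at all 5 under these settings and when weaker peaks, below the list's median score, were dropped. With 50 kb added there were 21 MTBP and 36 H3K4me2 peaks. With the span alone or 5 kb added, H3K4me2 peaks numbered 9. With features below their list's median score dropped, 4 MTBP peaks at 2 genes (MDM2 and MDM4) and 9 H3K4me2 peaks were left. Under that setting 2 of the 5 genes (MDM4 and BBC3) and 15 of the 44 list genes had a zone. When a zone had to cover at least 50% of the window, 1 of the 5 genes (BBC3) and 11 of the 44 list genes had one. Shares over all protein-coding windows are not given for these changed settings. The 32.1% with a zone belongs to the main setting and is not their counterpart. The median log2 deltaC/WT of -1.16 became -1.13 with 10 added to both signals, -1.29 for peaks in the spans alone, -0.91 without peaks below the median score (1 of 4 below 0.5) and -0.23 when centred on the list (1 of 12 below 0.5). No paired analysis was possible because the lists hold no library values, and leaving out a replicate could not be run for the same reason.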

Other observations

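TP63 and TP73, which encode the other p53 family proteins, had H3K4me2 and no MTBP in windows of 341 and 124 kb, and TP73 had a zone. GADD45B had 5 MTBP peaks and a zone, with a summed signal of 771 in deltaC and 1754 in WT. GADD45G had 2 MTBP peaks and no zone, with 1048 in deltaC and 1777 in WT. Of the relatives of CDKN1A, CDKN1B had 4 MTBP peaks (992 in deltaC, 1821 in WT) and CDKN1C 2 (256 in deltaC, 653 in WT), and neither had a zone.

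Small RNA genes lay under MTBP peaks at 2 of the loci, the lysine tRNA genes upstream of MDM4 and the miRNA genes in BBC3, an observation made after the values were seen. Over the genome, 31.8% of 443 tRNA genes in the RefSeq table overlapped an MTBP peak and 54.2% an H3K4me2 peak, and 14.9% a zone. Of 1911 miRNA genes, 5.65% overlapped an MTBP peak, 13.7% an H3K4me2 peak and 15.6% a zone. Many tRNA genes are near-identical copies in clusters, and how reads that fit several copies were placed is not given in the sources used here.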
